A study of Homo sapiens with 15 samples.

Results

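Expression of 9 genes of the plasminogen activator and tissue factor systems was examined in fibroblasts and small cell lung cancer (SCLC) cells that had been grown apart or together. The genes were taken by symbol: PLAU, PLAUR, PLAT, SERPINE2, SERPINB2, F3, TFPI, TFPI2 and THBD. All 9 were listed among the 16382 genes of the MRC5 table and among the 16076 genes of the H196 table. The fibroblasts were MRC5 cells, purchased and described by the authors as primary fibroblasts of human lung. The tumor lines were H69, of the neuroendocrine (NE) subtype, and H196, of the non-NE subtype. Mono-cultures are called MRC5_Mo and H196_Mo. In co-culture a permeable transwell insert held the partner cells for 7 days, which gave MRC5 cells beside H69 (MRC5_CoH69), MRC5 cells beside H196 (MRC5_CoH196) and H196 cells beside MRC5 (H196_Co). The labels name no drug or genetic change in any group. H69 cells themselves were not analysed here. Each of the 5 groups had 3 libraries, 15 in all. The sources describe parallel replicates and do not say that these were separate cultures, so the p-values measure the spread between these libraries, which may be technical.

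Plasminogen is a circulating zymogen that is cleaved to plasmin, the protease that dissolves fibrin and also degrades matrix proteins. PLAU encodes urokinase and PLAT tissue-type plasminogen activator, the enzymes that make this cleavage, and PLAUR encodes the receptor that holds urokinase at the cell surface. Serpins are suicide inhibitors of serine proteases, of which SERPINE2 (protease nexin 1) inhibits thrombin and both activators, and SERPINB2 (plasminogen activator inhibitor 2) inhibits urokinase and is found mostly inside cells. F3 encodes tissue factor, the membrane receptor of factor VII that starts coagulation. TFPI blocks the complex of tissue factor and factor VIIa, TFPI2 is a related Kunitz-type inhibitor found in the matrix that acts on plasmin among other proteases, and THBD encodes thrombomodulin, an endothelial receptor that turns thrombin towards protein C activation. Fibroblasts around tumors are known to carry urokinase, its receptor and tissue factor.

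In the MRC5 cells grown with H196 cells, the balance between both activators changed: PLAU fell from 305 to 126 FPKM on average and PLAT rose from 42.0 to 113, while F3 rose from 304 to 557 and SERPINE2 from 54.9 to 77.8 (errors and tests are given with each gene). The fibroblasts grown with H69 cells did not show these changes, and their PLAU level lay above that of MRC5_Mo cells. In the H196 cells, 7 of the 9 genes were tested. Of these, PLAUR alone rose past both limits with co-culture, at 73.1 FPKM alone and 113 in co-culture. Of all genes tested in H196 cells, 3.26% rose past both limits. A gene was called when its Benjamini-Hochberg adjusted p in edgeR's quasi-likelihood test was under 0.05 and its absolute log2 fold change exceeded 0.58, the fold limit of the study.

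The promoters of 5 of the genes are shown. Those of F3, PLAUR, SERPINB2 and TFPI2 hold an AP-1 motif, and PLAU is the one member called lower in MRC5_CoH196 cells. The windows of SERPINE2, which was called higher there, also held motif matches and are not shown. A link between these letters and the changes was not tested. RefSeq windows of 300 bases (250 before and 50 after a transcript start, GRCh38.p14) were at hand for 7 of the 9 genes. Capitals mark matches on either strand to the AP-1 motif (TGANTCA, 7 letters, which reads the same way on both strands) and to the core of the hypoxia response element (ACGTG or GCGTG, 5 letters). The windows, each read along the strand of its gene, are chr1:94541710-94542009 on the minus strand for F3, chr19:43670120-43670419 on the minus strand for PLAUR, chr18:63887455-63887754 on the plus strand for SERPINB2, chr7:93890704-93891003 on the minus strand for TFPI2 and chr10:73910882-73911181 on the plus strand for PLAU.
F3: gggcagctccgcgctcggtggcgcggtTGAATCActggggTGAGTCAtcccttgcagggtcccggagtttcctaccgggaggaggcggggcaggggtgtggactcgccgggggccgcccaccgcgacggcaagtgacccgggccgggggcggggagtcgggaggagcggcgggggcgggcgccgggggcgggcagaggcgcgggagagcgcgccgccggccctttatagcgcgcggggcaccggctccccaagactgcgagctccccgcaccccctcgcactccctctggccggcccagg
PLAUR: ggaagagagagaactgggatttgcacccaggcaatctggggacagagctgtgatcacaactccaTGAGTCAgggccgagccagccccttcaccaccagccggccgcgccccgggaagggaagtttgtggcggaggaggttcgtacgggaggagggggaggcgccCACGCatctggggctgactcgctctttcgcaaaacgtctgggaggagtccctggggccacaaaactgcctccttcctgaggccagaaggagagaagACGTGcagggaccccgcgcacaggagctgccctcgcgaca
SERPINB2: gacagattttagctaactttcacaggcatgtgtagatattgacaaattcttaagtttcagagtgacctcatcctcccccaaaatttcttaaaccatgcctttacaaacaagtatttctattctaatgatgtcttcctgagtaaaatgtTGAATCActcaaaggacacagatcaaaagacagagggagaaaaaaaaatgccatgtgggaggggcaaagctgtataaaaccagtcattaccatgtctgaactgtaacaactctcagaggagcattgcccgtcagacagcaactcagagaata
TFPI2: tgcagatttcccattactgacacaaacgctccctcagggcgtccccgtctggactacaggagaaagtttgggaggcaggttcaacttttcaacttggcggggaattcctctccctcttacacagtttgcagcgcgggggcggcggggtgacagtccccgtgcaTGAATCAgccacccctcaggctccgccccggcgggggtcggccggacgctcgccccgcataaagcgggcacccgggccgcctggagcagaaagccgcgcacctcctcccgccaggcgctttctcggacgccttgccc
PLAU: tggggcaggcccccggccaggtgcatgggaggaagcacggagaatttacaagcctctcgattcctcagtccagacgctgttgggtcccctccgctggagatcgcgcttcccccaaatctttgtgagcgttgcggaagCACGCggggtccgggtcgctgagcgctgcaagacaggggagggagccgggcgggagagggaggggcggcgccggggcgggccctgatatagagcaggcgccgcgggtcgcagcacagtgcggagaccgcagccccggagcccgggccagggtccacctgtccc
The AP-1 motif was present in windows of 4 of the 7 genes. By window this was 4 of 9, against 7.71% of all 35116 promoter windows of the same length. F3 held 2 such matches, which began 223 and 210 bases before the start, and PLAUR, SERPINB2 and TFPI2 held 1 each, at 186, 102 and 87 bases before it. The hypoxia core was present in windows of 3 of the 7 genes, PLAU, PLAUR and SERPINE2. By window this was 4 of 9, against 48.4% of all windows. PLAU and SERPINE2 have a pair of windows each, and the other PLAU window, chr10:73910360-73910659, held neither motif. TFPI held neither. Against MRC5_Mo, the log2 fold changes of the 4 genes with an AP-1 motif in MRC5_CoH196 cells were positive for F3 (1.05), TFPI2 (0.56) and PLAUR (0.52). That of SERPINB2 was negative (-0.31). F3 alone passed the fold limit, and a part of the motif in these changes was not tested. A match describes letters only, and no binding was measured.

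**Figure D1:**
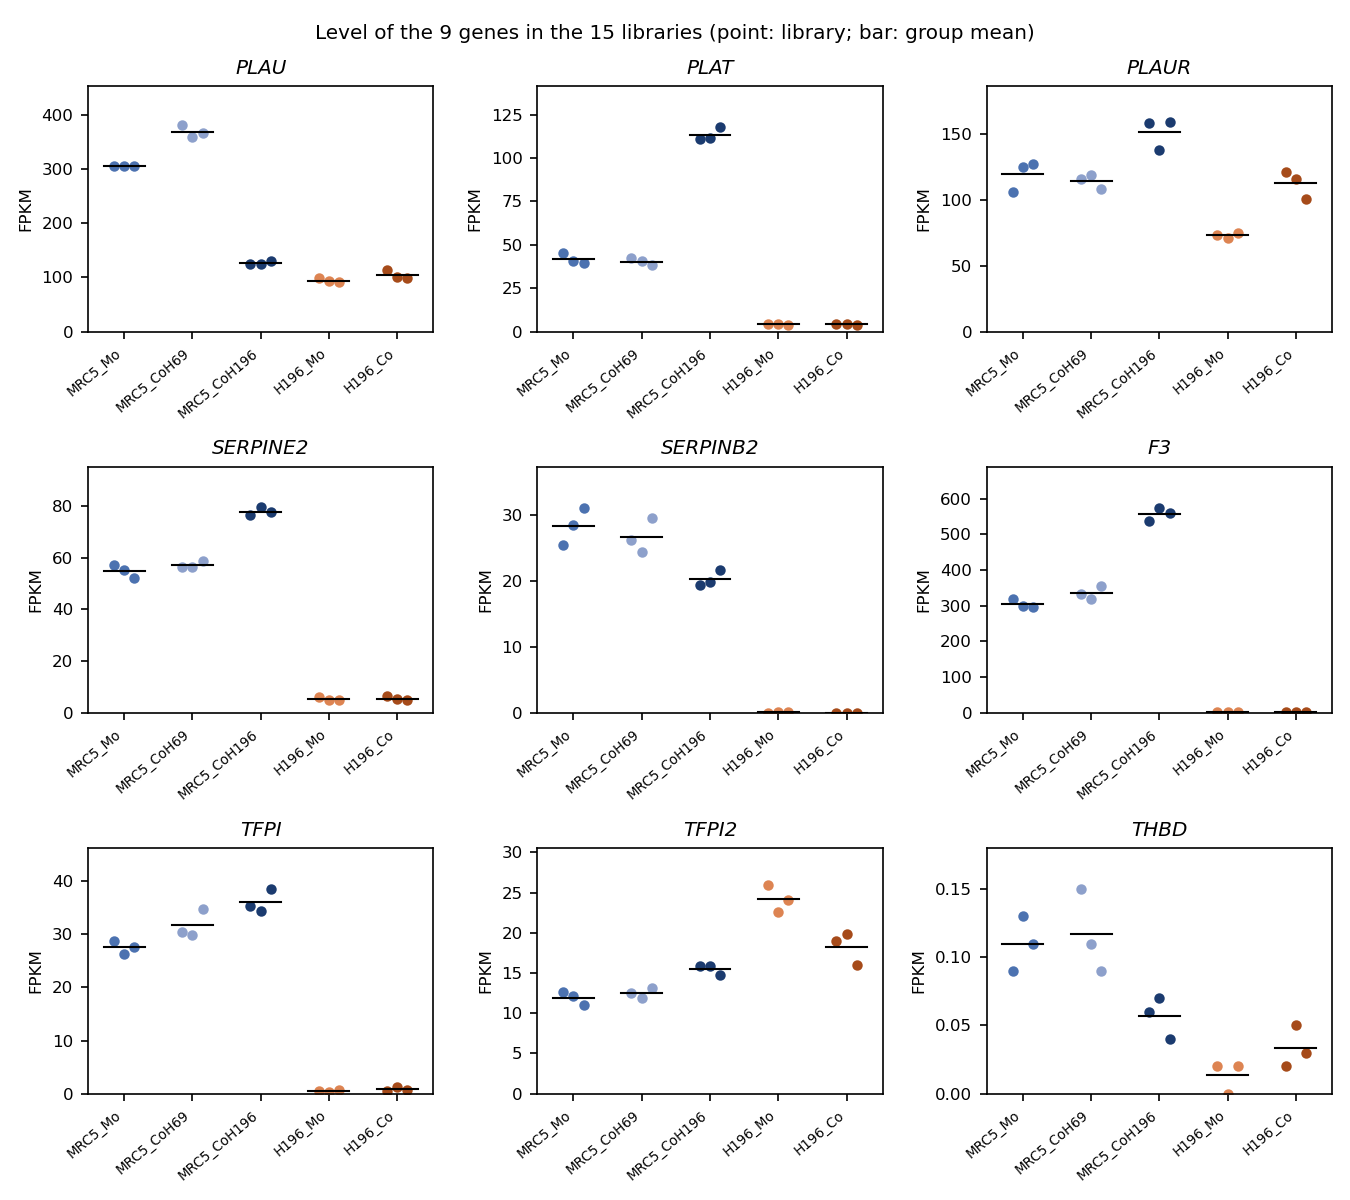
FPKM (fragments scaled to transcript length and library total, linear axes from 0) of each of the 9 genes in all 15 libraries, with 1 point per library and a bar at the mean of each group of 3. In MRC5_CoH196 cells PLAU is low and PLAT, F3 and SERPINE2 are high, and F3, TFPI and SERPINB2 lie near 0 in both H196 groups.

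Levels are given as FPKM, which divides by transcript length and so lets genes be compared. In MRC5_Mo cells PLAU and F3 were the most abundant of the 9 genes, with 305 ± 0.653 and 304 ± 11.6 FPKM (SD, n = 3). PLAUR followed with 119 ± 11.9 FPKM (SD, n = 3), SERPINE2 with 54.9 ± 2.39, PLAT with 42.0 ± 2.92, SERPINB2 with 28.3 ± 2.84, TFPI with 27.6 ± 1.25 and TFPI2 with 11.9 ± 0.854. In that order PLAU overlapped with F3, and SERPINB2 with TFPI. THBD had 0.11 ± 0.02 FPKM, on 6 to 9 counts per library, and was below the low-count filter of every fit.

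The fibroblast markers told the MRC5 cells from the H196 cells, while the markers of H196 cells given here did not settle their subtype. The 8 fibroblast markers, COL1A1, COL1A2, COL3A1, PDGFRB, THY1, DCN, LUM and FAP, were all present in MRC5_Mo cells, where FAP was lowest at 30.9 to 34.4 FPKM. In H196_Mo cells, 7 of these 8 were at 0.3 FPKM or less and THY1 was not listed in the H196 table. H196_Mo cells had YAP1, a marker of non-NE SCLC, at 38.9 to 45.9 FPKM, below the 54.7 to 55.5 FPKM of MRC5_Mo cells. SYP, a neuroendocrine marker, was at 8.38 to 8.96 FPKM in H196_Mo cells. The endothelial markers PECAM1, VWF, CDH5 and KDR, where listed, were at 0.07 FPKM or less in H196_Mo and MRC5_Mo cells. Library totals ran from 16073597 to 19170560 counts.

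RNA of the partner line was looked for through genes that 1 line expressed and the other did not. The 99 genes of H196 cells summed to 9.49 to 10.4 CPM (counts scaled to the library total) in MRC5_Mo, 8.68 to 10.8 in MRC5_CoH69 and 23.9 to 62.4 in MRC5_CoH196 libraries, the last being up to 0.781% of their sum in H196_Mo cells. The 160 genes of MRC5 cells summed to 15.6 to 16.1 CPM in H196_Mo and 19.0 to 21.1 CPM in H196_Co libraries, up to 0.0561% of their sum in MRC5_Mo cells. If that whole signal were partner RNA, reckoned with the highest marker sum and the highest level among the partner's libraries of the co-culture, it would bring 1.86 of the 261 CPM of PLAU and 0.302 of the 29.9 CPM of TFPI2 in MRC5_CoH196 cells, and 0.0978 of the 120 CPM of PLAUR in H196_Co cells. For F3 in H196_Co cells the same reckoning gives 0.679 of 3.73 CPM.

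The comparison of MRC5_CoH196 with MRC5_Mo cells asks how the fibroblasts differ after growth beside non-NE SCLC cells. Of the 8 members tested, 4 were called, 3 higher and 1 lower, where 31.9% of the 12819 genes tested were called, 17.2% higher and 14.7% lower. By adjusted p alone all 8 passed, as did 74.3% of all genes tested. The median log2 fold change of the 8 was 0.54, and that of all genes -0.003. For all 8, FPKM ranges of these groups were apart, but the share of all genes with ranges apart was not counted. This is therefore not read as a trait of the members.

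PLAU (gene ID 5328), the urokinase gene on chromosome 10 (73909182 to 73918145, GRCh38.p13 as in the deposited table, like the positions that follow), had 306, 305 and 305 FPKM in MRC5_Mo cells, 382, 359 and 366 in MRC5_CoH69 cells, and 125, 124 and 130 in MRC5_CoH196 cells. The H196 partner thus went with the low values and the H69 partner with the high ones, and no library of 1 group reached the range of another. The log2 fold change was -1.10 with H196 (standard error 0.042, adjusted p = 1.59e-17) and 0.28 with H69 (standard error 0.041, adjusted p = 5.3e-05, below the fold limit). Between both co-cultures it was -1.38 (95% confidence interval -1.47 to -1.30, adjusted p = 1.81e-19).

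PLAT (5327, chromosome 8, 42174718 to 42207565), the other activator, had 45.3, 40.8 and 39.8 FPKM in MRC5_Mo cells, 42.2, 40.7 and 38.3 in MRC5_CoH69 cells, and 111, 111 and 118 in MRC5_CoH196 cells. All 3 libraries grown with H196 lay far above the other 6, which overlapped. The log2 fold change against MRC5_Mo was 1.61 (standard error 0.052, adjusted p = 4.98e-19), the largest of the 8, and with H69 it was -0.04 (95% confidence interval -0.15 to 0.07, adjusted p = 0.713). Against MRC5_CoH69 it was 1.65 (adjusted p = 3.67e-19).

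Because PLAU fell and PLAT rose, the ratio of their FPKM within a library moved more than either. PLAU stood at 6.76 to 7.66 times PLAT in MRC5_Mo libraries (mean 7.30), at 8.82 to 9.55 times in MRC5_CoH69 (mean 9.15) and at 1.10 to 1.12 times in MRC5_CoH196 (mean 1.11). In H196 cells, which have little PLAT, the ratio was 19.9 to 23.6 alone and 22.1 to 25.6 in co-culture, ranges that overlap. A ratio within a library does not depend on the scaling between libraries.

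**Figure D2:**
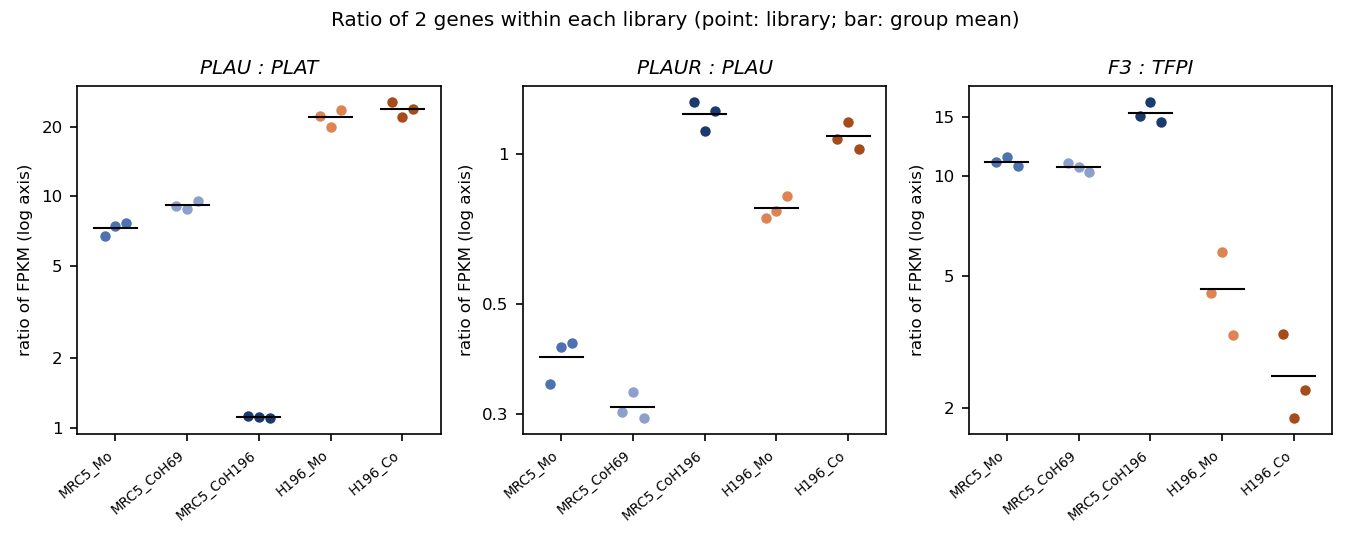
Ratio of the FPKM of 2 genes within each library on log axes, for PLAU over PLAT, PLAUR over PLAU, and F3 over TFPI, with 1 point per library and a bar at the group mean. The 3 MRC5_CoH196 libraries have a PLAU to PLAT ratio near 1 (mean 1.11), against 7.30 in MRC5_Mo.

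PLAUR (5329, chromosome 19, 43646095 to 43670197), the urokinase receptor, had 106, 125 and 127 FPKM in MRC5_Mo cells, 116, 119 and 108 in MRC5_CoH69 cells, and 158, 138 and 159 in MRC5_CoH196 cells. The H196 partner went with the highest values, while the other MRC5 groups overlapped. The log2 difference was 0.52 (standard error 0.065, adjusted p = 1.12e-07), below the fold limit. It passed that limit, with 0.60, when MRC5_CoH196 replicate 2 was left out, the library with the lowest PLAUR of its group. The receptor stood at 0.391 of PLAU in MRC5_Mo cells by mean FPKM ratio, 0.310 in MRC5_CoH69 and 1.20 in MRC5_CoH196, so that its FPKM exceeded that of its ligand only in the last of these MRC5 groups, with 1.11 to 1.27 in its 3 libraries.

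Of the inhibitors, SERPINE2 (5270, chromosome 2, 223975045 to 224039290) had 57.0, 55.4 and 52.3 FPKM in MRC5_Mo cells, 56.4, 56.2 and 58.6 in MRC5_CoH69 cells, and 76.3, 79.4 and 77.5 in MRC5_CoH196 cells. The first 2 groups overlapped and the third lay above both. Its log2 fold change was 0.68 (standard error 0.044, adjusted p = 6.16e-13) against MRC5_Mo and 0.61 (adjusted p = 5.12e-12) against MRC5_CoH69. Both calls rested on the count scale: on log2(FPKM + 1) the values were 0.50 and 0.44, under the fold limit. On that scale the median of all genes in MRC5_CoH196 against MRC5_Mo also stood at -0.13, and 30.5% of the called genes were higher, against 53.9% on counts.

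SERPINB2 (5055, chromosome 18, 63883979 to 63903890) had 25.3, 28.4 and 31.0 FPKM in MRC5_Mo cells, 26.1, 24.4 and 29.4 in MRC5_CoH69 cells, and 19.4, 19.8 and 21.6 in MRC5_CoH196 cells. The lowest group was again the one grown with H196, whose log2 difference of -0.31 (standard error 0.072, adjusted p = 0.000459) did not reach the fold limit. The value with H69 was -0.08 (95% confidence interval -0.22 to 0.07, adjusted p = 0.604). SERPINB2 and SERPINE2, both inhibitors of urokinase, thus had fold changes of opposite sign in MRC5_CoH196 cells, and SERPINB2 had the sign of PLAU.

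F3 (2152, chromosome 1), the gene of tissue factor, had 317, 299 and 296 FPKM in MRC5_Mo cells, 332, 319 and 356 in MRC5_CoH69 cells, and 537, 574 and 559 in MRC5_CoH196 cells. The 3 groups did not overlap, though MRC5_Mo and MRC5_CoH69 lay close, and the step to H196 co-culture was by far the larger. The log2 fold change was 1.05 with H196 (standard error 0.044, adjusted p = 1.03e-16) and 0.15 with H69 (standard error 0.044, adjusted p = 0.0333, below the fold limit). At 557 ± 18.7 FPKM (SD, n = 3), F3 was the most abundant of the 9 genes in MRC5_CoH196 cells. The table places F3 at 94452020 to 94592677, an interval of 140658 bases, whereas RefSeq gives the gene 12587 bases in GRCh38.p14, so transcripts beside F3 may be counted with it.

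TFPI (7035, chromosome 2, 187464230 to 187558350), the inhibitor of the tissue factor complex, differed little between MRC5_Mo and MRC5_CoH196 cells in unscaled counts and more in FPKM. The 3 libraries held 1297, 1204 and 1250 counts in MRC5_Mo cells and 1211, 1235 and 1314 in MRC5_CoH196 cells, which overlap, while FPKM went from 28.8, 26.3 and 27.7 to 35.4, 34.4 and 38.6, which do not. The log2 fold change on scaled counts was 0.16 (standard error 0.049, adjusted p = 0.00504) and on log2(FPKM + 1) it was 0.38 (adjusted p = 0.000165, limma), both below the fold limit. The scales differ in 2 steps. Before any scaling, log2 CPM differed by -0.01, to which the TMM factors of the count test added 0.17, while in FPKM the length by which the authors divided, a log2 change of -0.40, took the difference to 0.39. The quotient of CPM and FPKM, in bases, gave an implied length of 2425 bases in MRC5_Mo cells (2405 to 2435), 2258 in MRC5_CoH69 cells (2131 to 2334) and 1837 in MRC5_CoH196 cells (1777 to 1944), with no overlap between groups.

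No other gene had a fall in implied length as large as that of TFPI, a log2 change of -0.40, among the 9642 MRC5 genes with at least 100 counts and 1 FPKM in every library, whose median change was -0.0016, while in 12 it rose by as much. Among the other 7 members measured, it moved by -0.0027 to 0.00047. TFPI has several transcripts, and in GENCODE release 29 its 10 protein-coding transcripts run from 545 to 3885 bases. RSEM, named in the submitters' processing notes, derives a gene's length from the estimated mix of its transcripts, and transcript values were not analysed here, so the part of the transcript mix in this change was not tested.

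**Figure D3:**
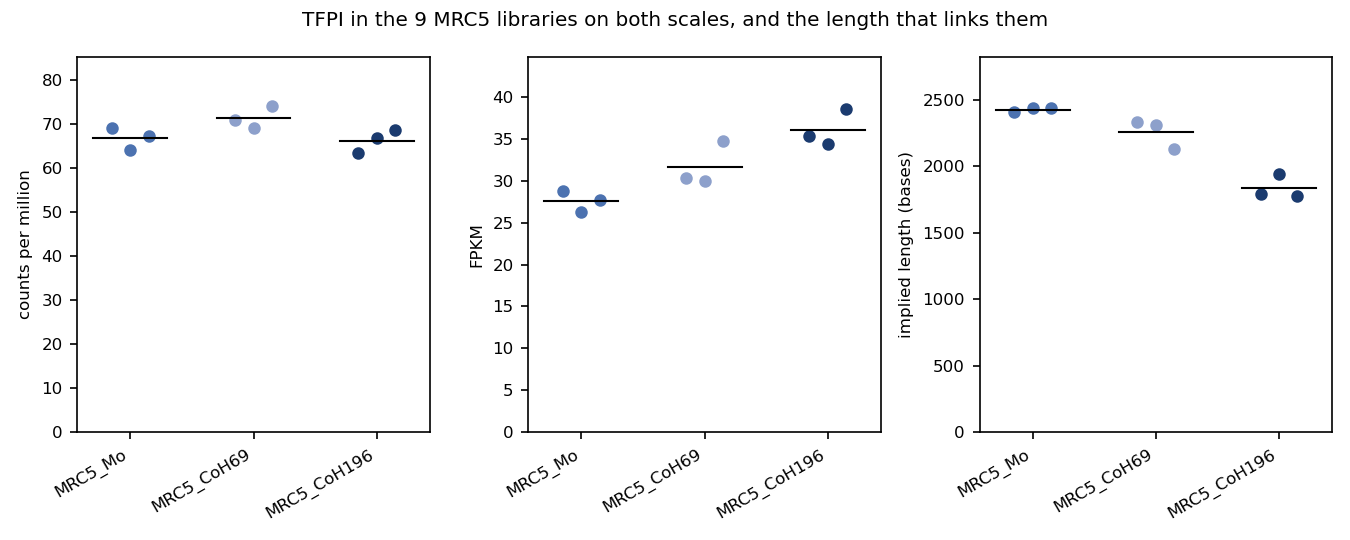
TFPI in the 9 MRC5 libraries as CPM, FPKM and implied length in bases (the quotient of CPM and FPKM), each on a linear axis from 0 with a bar at the group mean. Mean CPM is 66.8 in MRC5_Mo, 71.3 in MRC5_CoH69 and 66.2 in MRC5_CoH196, FPKM is highest in MRC5_CoH196 (mean 36.1) and the implied length is lowest there (mean 1837 bases).

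TFPI2 (7980, chromosome 7, 93885396 to 93890753) had 12.62, 12.18 and 10.97 FPKM in MRC5_Mo cells, 12.5, 11.9 and 13.2 in MRC5_CoH69 cells, and 15.9, 15.9 and 14.8 in MRC5_CoH196 cells. The last group lay above the other MRC5 groups, which overlapped. Its log2 fold change with H196 was 0.56 (standard error 0.065, adjusted p = 3.34e-08), just under the fold limit, and passed it with 0.59 without MRC5_CoH196 replicate 3 and 0.60 without MRC5_Mo replicate 1. The FPKM of tissue factor relative to either inhibitor was higher in MRC5_CoH196 cells. It was 10.7 to 11.4 times that of TFPI in MRC5_Mo libraries and 14.5 to 16.7 times in MRC5_CoH196, and 24.5 to 27.0 and 33.7 to 37.9 times that of TFPI2. THBD (7056, chromosome 20, 23045633 to 23049672) had 6, 9 and 8 counts in MRC5_Mo, 11, 8 and 6 in MRC5_CoH69, and 4, 5 and 3 in MRC5_CoH196 libraries, too few for the fits. The ratio of summed counts of MRC5_CoH196 to MRC5_Mo was 0.516 (95% exact interval 0.234 to 1.08, counting error only), and an exact two-sided permutation test gave p = 0.1, the smallest that 3 against 3 libraries allow.

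**Figure D4:**
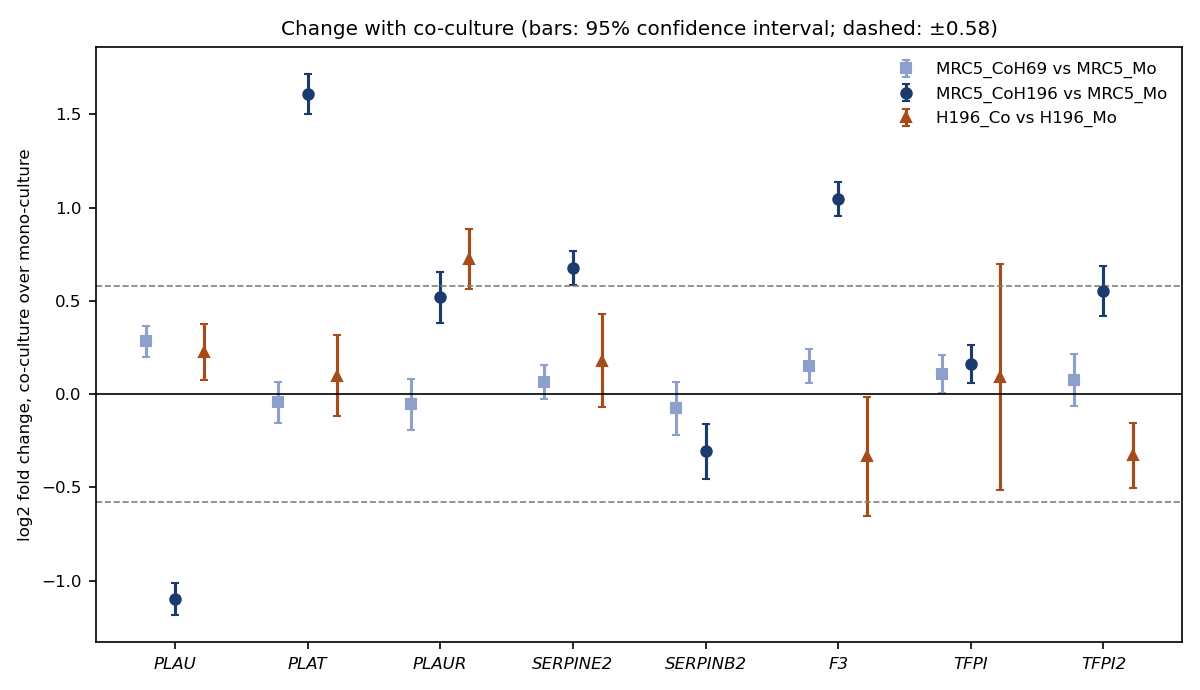
Log2 fold change of 8 genes in co-culture over mono-culture for MRC5 cells with H69 (squares), MRC5 cells with H196 (circles) and H196 cells with MRC5 (triangles), with 95% confidence intervals and dashed lines at ±0.58. PLAT (1.61), F3 (1.05), SERPINE2 (0.68) and PLAU (-1.10) lie outside the dashed lines in MRC5_CoH196, and PLAUR (0.73) in H196_Co.

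With H69 as the partner, none of the 8 members tested was called in edgeR's test, where 0.554% of genes were called, 0.421% higher and 0.133% lower. By DESeq2 the number was also 0, where 0.343% of all genes were called. At an unadjusted p under 0.05 in edgeR's test, 3 of the 8 passed, and the share of all genes at that limit was not counted. By adjusted p alone 2 of the 8 did, PLAU and F3, where 6.70% of all genes did. The direct comparison of MRC5_CoH196 with MRC5_CoH69 cells called the same 4 genes as that with MRC5_Mo, PLAT, F3 and SERPINE2 higher and PLAU lower, where 28.2% of genes were called, 15.2% higher and 13.1% lower. By adjusted p alone 7 of 8 passed, all but TFPI, beside 72.3% of all genes. F3 differed by 0.90 (standard error 0.044, adjusted p = 2.71e-15). PLAUR had 0.57, just under the fold limit, and 0.58 in DESeq2 with the limit passed. PLAU was the one member whose fold changes with H196 and with H69 both passed the p limit with opposite signs. Both comparisons share the MRC5_Mo libraries.

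In the H196 cells, 7 of the 9 genes were tested and 1 was called, PLAUR, where 3.86% of the 12806 genes tested were called, 3.26% higher and 0.601% lower. PLAUR had 73.0, 71.3 and 75.0 FPKM in H196_Mo cells and 121, 116 and 101 in H196_Co cells. The groups did not overlap. In FPKM the H196_Co libraries reached the range of MRC5_Mo and MRC5_CoH69 cells, but on the scaled counts of the tests they lay below both, with 92.6 to 112 scaled CPM against 121 to 146 and 122 to 138. The log2 fold change was 0.73 (standard error 0.078, adjusted p = 1.26e-06).

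By adjusted p alone 3 of the 7 passed, where 19.8% of all genes did. PLAU had 98.3, 92.7 and 91.1 FPKM in H196_Mo cells and 114, 100 and 99.0 in H196_Co cells, a narrow gap between groups, at a log2 difference of 0.23 (standard error 0.072, adjusted p = 0.0328). TFPI2 had 26.0, 22.6 and 24.1 FPKM alone and 19.0, 19.8 and 16.0 in co-culture, lower in all 3 libraries, with -0.33 (standard error 0.084, adjusted p = 0.00943). Neither reached the fold limit. The receptor to ligand ratio, PLAUR over PLAU, went from 0.743 to 0.823 in H196_Mo libraries up to 1.02 to 1.16 in H196_Co.

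The other members were low in H196 cells. F3 had 82, 79 and 90 counts in H196_Mo and 57, 74 and 59 in H196_Co libraries, a log2 fold change of -0.33 (95% confidence interval -0.65 to -0.01) that did not pass after adjustment (adjusted p = 0.131). PLAT, with 4.40, 4.66 and 3.86 against 4.43, 4.53 and 4.13 FPKM, had 0.10 (95% confidence interval -0.12 to 0.32, adjusted p = 0.538). SERPINE2 had 0.18 (95% confidence interval -0.07 to 0.43, adjusted p = 0.302), and TFPI, on 14 to 28 counts per library, 0.09 (95% confidence interval -0.51 to 0.70, adjusted p = 0.854). SERPINB2 had 0, 4 and 2 counts in H196_Mo libraries and 0 in each H196_Co library, which allows up to 0.174 to 0.178 CPM per library at 3 counts. THBD had 0 to 3 counts in the H196 libraries.

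Between the lines grown alone, 7 of 8 members tested were called and all 7 were lower in H196_Mo than in MRC5_Mo cells, where 61.7% of the 13585 genes tested in both tables were called, 31.5% higher and 30.2% lower, and 86.6% passed by adjusted p alone. The authors kept the SCLC lines in RPMI medium and the MRC5 cells in MEM. The cell line, its culture medium and the table cannot be told apart in this comparison. F3 had 2.54, 2.25 and 2.59 FPKM in H196_Mo cells, against about 300 in MRC5_Mo as given above, with a log2 difference of -7.39 (adjusted p = 2.03e-32, standard error 0.082). TFPI followed with -6.27, SERPINE2 with -3.86, PLAT with -3.73, PLAU with -2.13 and PLAUR with -1.14. SERPINB2 summed to 6 counts over 3 H196_Mo libraries and 2580 over 3 MRC5_Mo libraries, 389 times higher in the fibroblasts (95% exact interval 178 to 1060, counting error only). Of these 6 counts, 4 came from H196_Mo replicate 2, without which the ratio was 767 (95% exact interval 212 to 6339). TFPI2 was the exception: its FPKM was higher in H196_Mo, and its log2 fold change of 0.58 (0.579 before rounding, adjusted p = 5.96e-08) fell just short of the limit on counts and was 0.96 on log2(FPKM + 1), where the median of all genes was 0.34. In FPKM, F3 was 0.0978 to 0.108 of TFPI2 in H196_Mo libraries, the reverse of the order in MRC5 cells.

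Across the 5 groups, mean FPKM was ordered MRC5_CoH69, MRC5_Mo, MRC5_CoH196, H196_Co, H196_Mo for PLAU, with no overlap between neighbours. For F3 the order was MRC5_CoH196, MRC5_CoH69, MRC5_Mo, H196_Mo, H196_Co, again with no overlap in FPKM. For PLAUR it was MRC5_CoH196, MRC5_Mo, MRC5_CoH69, H196_Co, H196_Mo, of which the middle 3 overlapped with their neighbours. For PLAT it was MRC5_CoH196, MRC5_Mo, MRC5_CoH69, H196_Co, H196_Mo, with overlap between the MRC5 groups other than the first and between both H196 groups. TFPI2 alone had the H196 groups on top in FPKM, H196_Mo before H196_Co, MRC5_CoH196, MRC5_CoH69 and MRC5_Mo, of which the last 2 overlapped. On the scaled counts of the tests this order changed: MRC5_CoH196 (35.2 to 38.0 scaled CPM) overlapped with H196_Mo (35.5 to 39.5) and lay above H196_Co (26.7 to 32.5), which overlapped with MRC5_CoH69. F3 in both H196 groups also overlapped on that scale.

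Whether the 2 partners responded differently was tested as the fold change in MRC5 cells with H196 minus that in H196 cells with MRC5. Of the 8 members in this fit, 4 were called, where 24.7% of genes were called, 12.1% higher and 12.6% lower, and 5 passed by adjusted p alone, where 51.2% of all genes did. The response was higher in MRC5 cells for PLAT by 1.48 (standard error 0.11, adjusted p = 2.31e-11), for F3 by 1.35 (standard error 0.14, adjusted p = 1.17e-08) and for TFPI2 by 0.86 (standard error 0.11, adjusted p = 1.73e-07), and lower for PLAU, with -1.35 (standard error 0.079, adjusted p = 1.21e-13). PLAU, F3 and TFPI2 had fold changes of opposite sign in the 2 lines, though that of F3 in H196 cells (-0.33) did not pass after adjustment. For PLAUR the difference was -0.23 (95% confidence interval -0.45 to -0.01, adjusted p = 0.0708). SERPINB2 gives no usable value here, since H196_Co libraries had no count.

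The other genes of the pathways were described by 3 lists chosen by function. Of 18 genes of the plasminogen system, 10 were tested in MRC5 cells, and 4 were called in MRC5_CoH196 against MRC5_Mo, all higher, where 31.9% of all genes were called and 17.2% called higher. The median log2 fold change of the 10 was 0.28, beside -0.003 over all genes. With a fold limit of 1 the count was 1, where 12.2% of all genes were called. ENO1, the enolase that also serves as a plasminogen receptor, rose by 0.94 (1333 to 2257 FPKM, adjusted p = 3.47e-16). MRC2, a collagen receptor that associates with the urokinase receptor, rose by 0.77 (95.8 to 145 FPKM, adjusted p = 2.63e-14), and LRP1, which clears complexes of activators and serpins, by 0.68 (95.5 to 135 FPKM, adjusted p = 8.59e-13). None of the 10 was called with H69, where 0.554% of all genes were, with a median of -0.05. PLG itself was not among the genes tested. In H196_Co cells 1 of 8 tested was called, where 3.86% of all genes were. It was F12, the contact factor that can activate plasminogen, at 0.72 (2.82 to 4.43 FPKM, adjusted p = 0.00167), and without H196_Mo replicate 1 the count was 0.

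Of 26 genes of coagulation and thrombin signalling, 10 were tested in MRC5 cells and 6 were called in MRC5_CoH196, all higher, where 31.9% of all genes were called and 17.2% called higher. The median of the 10 was 0.76. F10, the factor that the tissue factor complex activates, rose by 1.46 (12.3 to 29.9 FPKM, adjusted p = 2.90e-16). F2RL1, the protease-activated receptor PAR2, rose by 1.34 (3.98 to 8.96 FPKM, adjusted p = 2.60e-13), and VKORC1, the vitamin K reductase needed for the carboxylation of clotting factors, by 1.14 (214 to 423 FPKM, adjusted p = 1.09e-16). With H69 none was called, where 0.554% of all genes were, and the median was 0.14. In H196_Co cells 1 of 8 tested was called, VKORC1 at 0.64 (adjusted p = 2.35e-05), where 3.86% of all genes were, with a median of -0.04. That count was 0 without H196_Mo replicate 1. F2RL1 had -0.25 there (adjusted p = 0.0121), and its response differed between the lines by 1.56 (adjusted p = 5.16e-13). Alone, H196 cells had 143 FPKM of F2RL1 and MRC5 cells 3.98.

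Of 16 other serpins, 9 were tested in MRC5 cells and 2 were called in MRC5_CoH196, a smaller share than the 31.9% of all genes called, with a median of 0.33. SERPING1, the C1 inhibitor, which also inhibits contact factors, rose by 2.69 (19.7 to 112 FPKM, adjusted p = 3.81e-22), and SERPINH1, the collagen chaperone HSP47, which inhibits no protease, fell by 1.03 on the log2 scale (707 to 308 FPKM, adjusted p = 3.25e-16). SERPING1 was the only serpin of the list called with H69, where 0.554% of all genes were, at 0.75 (19.7 to 32.9 FPKM, adjusted p = 2.36e-08). None of 9 tested was called in H196_Co cells with edgeR, where 3.86% of all genes were, with a median of 0.16, while SERPINB8 had -0.53 (adjusted p = 0.00216) and SERPINA1 0.34 (adjusted p = 0.0154).

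**Figure D5:**
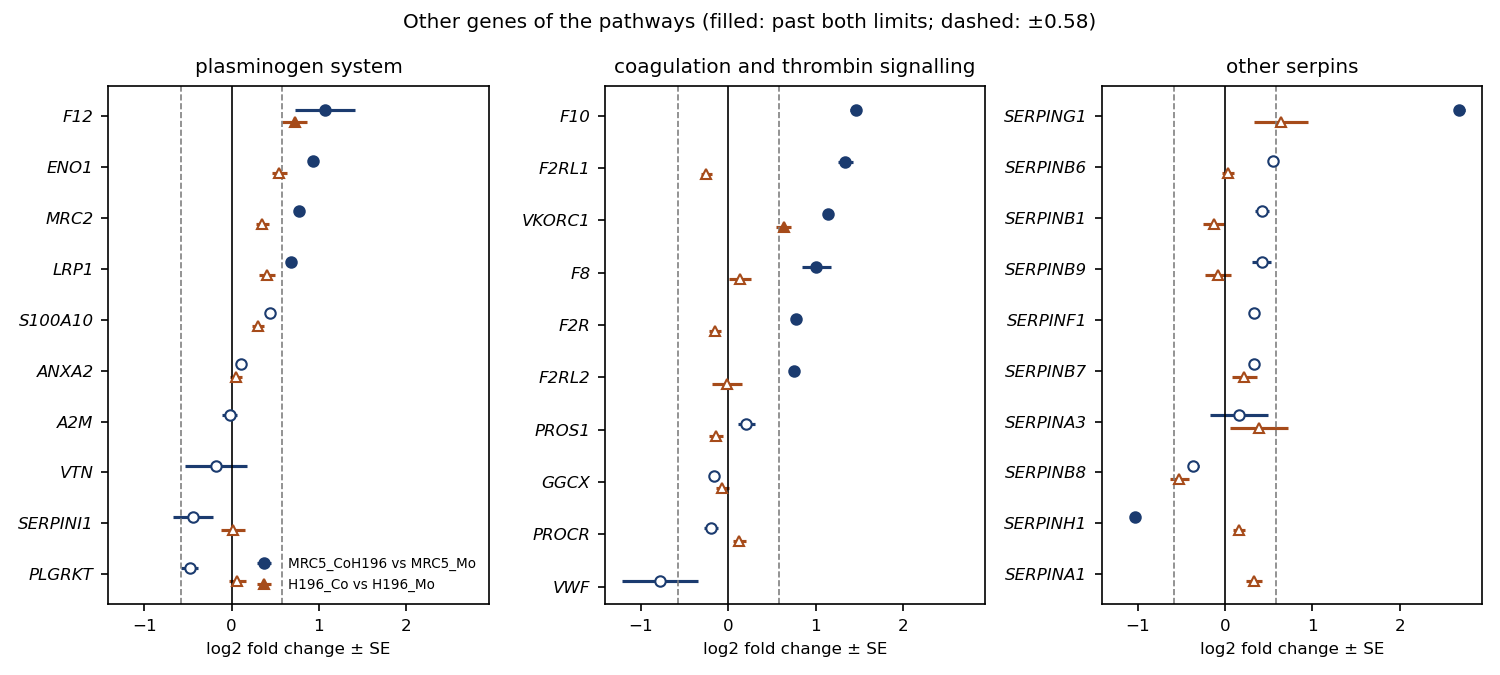
Log2 fold change with its standard error for the tested genes of 3 lists, in MRC5_CoH196 over MRC5_Mo (circles) and H196_Co over H196_Mo (triangles), with filled symbols for called genes and dashed lines at ±0.58. SERPING1 (2.69) and F10 (1.46) lie farthest to the right in MRC5 cells, and SERPINH1 (-1.03) farthest to the left.

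Between the lines grown alone, 61.7% of all genes were called, 31.5% higher and 30.2% lower. In H196_Mo against MRC5_Mo cells, 8 of 10 genes of the plasminogen system tested were called, 3 higher and 5 lower, all 10 of the coagulation list, 4 higher and 6 lower, and 8 of 10 of the other serpins, 1 higher and 7 lower. SERPINA1, the inhibitor of neutrophil elastase, was the higher one, with 7.17 against 0.167 FPKM. LRP1 was lower by -4.14 (7.34 against 95.5 FPKM). A2M, a broad protease inhibitor, was listed at 0 in all 3 H196_Mo libraries.

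Over the 9 MRC5 libraries, log2 CPM of PLAU ran against that of PLAT (Pearson r = -0.98), F3 (-0.94) and SERPINE2 (-0.95), and with that of SERPINB2 (0.73), while F3 and SERPINE2 ran together (0.99). These values describe 3 groups, so they mostly restate the group means. Of 10450 other genes, those most like PLAU were GBP1, ZNF469 and GBP2 (r = 0.997, 0.996 and 0.996), those most like PLAT were ADAMTSL4, PFKFB4 and MED13L (0.999 each), and those most like F3 were CYBRD1, RYBP and P4HA1 (0.999 each). SERPINE2 was closest to RNASE4, JCAD and SWAP70 (0.999, 0.998 and 0.998), and TFPI2 to GCLC, RBBP6 and PRCP (0.995, 0.994 and 0.994). Among the genes most like PLAUR were STK10 and DHPS (0.992 and 0.984). The closest genes to TFPI, MGARP, CEMIP and CEBPD, reached 0.985, 0.968 and 0.945, and those to SERPINB2, GPATCH1, CTNNBL1 and NAE1, 0.963, 0.953 and 0.945.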

How the data were processed

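Libraries of mRNA, captured with oligo(dT), were read on a BGIseq-500. SOAPnuke was used by the authors for cleaning, HISAT for alignment to the genome (GRCh38.p13) and Bowtie2 for alignment to reference gene sequences. The submitters' processing notes name HISAT2 2.1.0, Bowtie2 2.3.4.3 and RSEM 1.3.1. The authors deposited expected counts, which are estimates of fragments per gene and were not normalized, and the deposited FPKM values were divided by the authors by gene length and library total. Whether counting used strand is not given in the sources used here. The authors' columns of DESeq2 fold changes, p-values and q-values, and 30 per-library columns of TPM and normalized counts, were not used. A second copy of each table was not used either.

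Counts were rounded, and genes were kept by filterByExpr, scaled by TMM factors (0.916 to 1.05) and tested two-sided with edgeR 4.0.16 in R 4.3.3 (glmQLFit, glmQLFTest), with the 9 MRC5 libraries, the 6 H196 libraries or all 15 in a fit, and p-values adjusted by Benjamini-Hochberg over all genes of that fit. Calls needed both an adjusted p below 0.05 and a log2 fold change beyond 0.58 in size. Standard errors are the log2 fold change over the square root of F. Where limma 3.58.1 was used, it was fitted to log2(FPKM + 1) or log2(FPKM + 0.1), so folds of low genes are understated. DESeq2 1.42.0 was an alternative, as were other size factors, filters, limits, the replicate number as a block, fits of only the groups compared and each library left out. The edgeR and DESeq2 steps were tested on simulated counts.

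Named were all 9 genes, of each list and comparison up to 3 called genes with the largest fold change and a mean of at least 5 CPM, and the 3 genes most like each member. Other genes outside this rule were named after their values were seen. The members and lists were chosen with earlier results of these data known. Protein sequences, inhibitors outside the 9 genes and the 3 lists, and some genes that these rules or the marker lists name are not reported here. Libraries of a group differed by more than sampling noise (chi-square per degree of freedom 1.87 to 10.7), so none was counted as a duplicate.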

Additional observations from a re-analysis of the deposited data

Results flagged for a closer look

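For 5 of the genes, the fold change in MRC5 cells grown with H196 cells differed from the fold change in the H196 cells of that co-culture, by the test of the difference itself in edgeR's joint fit of 15 libraries. PLAU differed by -1.35 (adjusted p = 1.21e-13), with every MRC5_CoH196 library below every MRC5_Mo library and every H196_Co library above every H196_Mo library. PLAT differed by 1.48 (adjusted p = 2.31e-11) and F3 by 1.35 (adjusted p = 1.17e-08), both higher in 3 of 3 MRC5_CoH196 libraries. TFPI2 differed by 0.86 (adjusted p = 1.73e-07), higher in 3 of 3 MRC5_CoH196 libraries and lower in 3 of 3 H196_Co libraries than in any library of the same line grown alone. SERPINE2 differed by 0.47 (adjusted p = 0.000981), below the fold limit, which it passed without H196_Co replicate 1 (0.59). The cell line, its culture medium and the table cannot be told apart.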

How the results depend on the processing

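No fold change of a member changed sign with a call under any setting tried. Without a limit on the fold change, the number of members called was 8 in MRC5_CoH196 against MRC5_Mo, 2 in MRC5_CoH69 against MRC5_Mo, 7 in MRC5_CoH196 against MRC5_CoH69 and 3 in H196_Co against H196_Mo. The shares of all genes called were then 74.3%, 6.70%, 72.3% and 19.8%, in the same order. With a limit of 1 the number of members called was 2 in MRC5_CoH196 against MRC5_CoH69, where 10.6% of all genes were called. It was 0 in H196_Co against H196_Mo, where 1.15% of all genes were. With at least 10 counts in every library, 5 genes of the plasminogen system were called between the mono-cultures in place of 8, with fewer genes tested. Of all genes, 55.3% were called under that filter. The lists were run under the other settings after the data had been seen. With a limit of 1, the plasminogen list had 1 gene called in MRC5_CoH196 against MRC5_Mo (4 before), 1 against MRC5_CoH69 and 0 in H196_Co, the coagulation list 4 against MRC5_CoH69, 0 in H196_Co and 1 for the difference in response, and the serpins 0 with H69. Of all genes, that limit left 12.2% called in MRC5_CoH196 against MRC5_Mo, 10.6% against MRC5_CoH69 and 1.15% in H196_Co. It left 9.25% for the difference in response and 0.0702% with H69. Without a limit, the plasminogen list had 7, 3, 8, 5 and 3 genes called in MRC5_CoH196 and MRC5_CoH69 against MRC5_Mo, MRC5_CoH196 against MRC5_CoH69, H196_Co and the difference in response, the serpins 8, 3, 7, 2 and 5 in that order, and the coagulation list 2 in H196_Co and 7 for the difference in response. Of all genes, 74.3%, 6.70%, 72.3%, 19.8% and 51.2% were called without a limit, in the order given for the plasminogen list. On log2(FPKM + 1), the plasminogen list had 1 called against MRC5_CoH69, 0 in H196_Co and 1 for the difference in response, and the coagulation list 0 in H196_Co. The shares of all genes called on that scale were 20.025% against MRC5_CoH69, 1.52% in H196_Co and 17.5% for the difference in response. On log2(FPKM + 0.1), the coagulation list again had 0 in H196_Co, where 3.26% of all genes were called. The plasminogen list there had 1 for the difference in response, where 25.9% of all genes were. An AP-1 motif was found in windows of 1 of 7 genes, in place of 4, in the 150 bases nearest to the start. Of all windows, 3.95% held it there.

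Leaving out each library in turn gave 4 to 5 members called in MRC5_CoH196 against MRC5_Mo, 4 to 5 against MRC5_CoH69, 0 with H69, 1 in H196_Co, 7 to 8 between the mono-cultures and 4 to 5 for the difference in response. The shares of all genes called with every library kept are given with each comparison above. With a library left out, the plasminogen list had 0 to 2 genes called in H196_Co (0 without H196_Mo replicate 1, 2 without H196_Co replicate 2) and 0 to 1 for the difference in response, the coagulation list 0 to 1 in H196_Co (0 without H196_Mo replicate 1) and the serpins 0 to 1 (1 without H196_Mo replicate 2). Of all genes, 3.28% were called in H196_Co without H196_Mo replicate 1, 3.91% without H196_Co replicate 2 and 4.01% without H196_Mo replicate 2. The calls gained among members were those of PLAUR, TFPI2 and SERPINE2, each near the fold limit, and of SERPINB2 for the difference in response. PLAUR against MRC5_CoH69 passed that limit without MRC5_CoH196 replicate 2 (0.65) and without MRC5_CoH69 replicate 1 (0.58) or 2 (0.61). TFPI2 between the mono-cultures passed it without H196_Mo replicate 2 (0.62) and without MRC5_Mo replicate 1 (0.62) or 2 (0.59).

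Same-numbered libraries of different groups did not deviate together (correlations -0.15 to 0.08), so the numbers were not taken to pair the samples. With the replicate block, PLAU in MRC5_CoH196 against MRC5_Mo had -1.10, the call gained within a line or for the difference in response was that of SERPINB2 for the latter, and no call was lost. Blocks were set within each line, so the mono-cultures were there compared at the level of replicate 1. The values of TFPI2 (0.60, past the fold limit) and SERPINB2 (-11.9, against -8.94 without blocks) in that comparison are thus no block-adjusted differences. SERPINB2 had 0 counts in H196_Mo replicate 1. The other 224 counts of members and list genes under settings that kept all libraries stayed within 1.5 times the main count. Depth limits what can be said of THBD in all groups and of SERPINB2 and TFPI in H196 cells.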
